A study of Homo sapiens with 12 samples.

Results

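The genes of the ubiquitin-conjugating enzymes, the E2 enzymes, were followed in HEK293T cells in which UBE4B, LSD1 or both had been knocked down. Members were the genes whose symbol begins with UBE2 and a further letter, measured on a transcript cluster (the set of probes that the array assigns to one gene) that carries no other symbol. Pseudogenes were left out, and a gene with several clusters was read from its brightest cluster. This rule used no measured difference, although the family was chosen with earlier results of these data known. It gave 24 of the 18417 genes measured. The reference gene table held 35 protein-coding UBE2 genes. Of these, 2 (UBE2E3 and UBE2F) lay only on clusters of several symbols and 9, among them UBE2D1, UBE2D2 and UBE2D3, were not analysed here. A further 6 symbols were left out as pseudogenes.

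RNA was profiled on 12 Affymetrix Human Gene 1.0 ST arrays, 3 for each of 4 groups. The groups were cells given shRNAs against both UBE4B and LSD1 (shUBE4B+shLSD1, the double knockdown), shRNAs against UBE4B alone (shUBE4B), shRNAs against LSD1 alone (shLSD1), and a nontargeting shRNA (shCTRL, the control). HEK293T is a human embryonic kidney line that carries the SV40 large T antigen. All groups received shRNA from a transiently transfected plasmid and were lysed at 78 h, so every dish may hold cells that took up no plasmid. The paper describes a misfolding mutant of SOD1 in all of these cells, which the sample labels do not name. The 3 arrays of a group are labelled biological replicates. The limma p-values set differences of group means against the spread between replicates, pooled over all 4 groups. Less RNA per cell and fewer responding cells cannot be told apart in such samples.

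Ubiquitin is passed along a cascade. An E1 enzyme activates it, an E2 enzyme carries it on a cysteine, and an E3 ligase brings the loaded E2 to a substrate, where the E2 often decides which lysine of ubiquitin is used to build a chain. UBE4B is an E3 ligase and chain elongation factor with a U-box, a domain that binds E2 enzymes of the UBE2D type, and LSD1, the product of KDM1A, is a histone demethylase. E2 enzymes differ in their work: some build K48-linked chains that mark proteins for the proteasome, UBE2N builds K63-linked chains used in signalling and DNA repair, and others serve the endoplasmic reticulum, mitosis or ubiquitin-like proteins.

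The start regions of 3 E2 genes that passed a test below, UBE2N, UBE2Z and UBE2J1, are shown so that they can be set beside one another. UBE2H and UBE2Q1, which also passed, are named only. Each window runs from 250 bases before to 50 bases after the annotated start (RefSeq, GRCh38.p14), read 5′ to 3′ on the gene's own strand. Capitals mark the GC box GGGCGG, known as a binding site of Sp1, and the CCAAT box, known as a site of NF-Y, each on either strand. The UBE2N window is chr12:93441898-93442197 on the minus strand, that of UBE2Z is chr17:48908157-48908456 on the plus strand, and that of UBE2J1 is chr6:89352673-89352972 on the minus strand.
UBE2N: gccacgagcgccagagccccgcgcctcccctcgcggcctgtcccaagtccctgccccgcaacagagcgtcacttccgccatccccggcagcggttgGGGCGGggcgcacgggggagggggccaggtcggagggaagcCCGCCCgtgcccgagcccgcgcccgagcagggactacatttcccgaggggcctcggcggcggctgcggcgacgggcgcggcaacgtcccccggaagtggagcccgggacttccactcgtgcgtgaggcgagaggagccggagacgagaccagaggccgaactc
UBE2Z: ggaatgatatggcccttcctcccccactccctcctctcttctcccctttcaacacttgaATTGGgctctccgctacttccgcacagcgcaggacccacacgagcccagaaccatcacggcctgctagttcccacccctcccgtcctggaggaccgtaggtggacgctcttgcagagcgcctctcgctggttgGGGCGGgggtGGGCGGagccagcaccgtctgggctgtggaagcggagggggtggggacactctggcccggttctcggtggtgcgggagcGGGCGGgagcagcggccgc
UBE2J1: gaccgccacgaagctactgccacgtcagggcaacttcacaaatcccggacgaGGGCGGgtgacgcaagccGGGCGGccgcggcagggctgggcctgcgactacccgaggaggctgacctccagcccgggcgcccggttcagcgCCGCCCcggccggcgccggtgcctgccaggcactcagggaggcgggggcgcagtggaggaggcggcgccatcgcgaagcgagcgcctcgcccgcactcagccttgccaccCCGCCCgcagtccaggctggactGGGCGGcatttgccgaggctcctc
With the first base of the start at 0, the UBE2N window held GC boxes at -154 and -113, the UBE2Z window held them at -58, -48 and 31 with a CCAAT box at -191, and the UBE2J1 window held them at -198, -180, -107, 3 and 26. Over the family, 19 genes matched the table with 25 windows, and 19 of these windows (76%) held a GC box, against 44.95% of all 35116 windows. The E2 windows were also richer in G and C, with a median of 72% against 58.67% in all windows. CCAAT stood in 5 of the 25 (20%, against 34.61% of all windows). The other motifs were rare in the family. The CRE TGACGTCA was found in UBE2S alone (4%, against 1.848%), the NRF1 motif in UBE2K alone (4%, against 1.239%), and the CHR TTTGAA in UBE2T and UBE2U (8%, against 15.16%). The E-box CACGTG was in 0 of the 25 (against 7.256%). Each motif was searched on both strands, and the boxes in the printed windows do not overlap one another. A match is a description of letters and says nothing of binding in these cells.

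Values below are the deposited log2 signals, on which a difference of 1 is a 2-fold change. Array medians were 7.00 to 7.06. Differences were tested with limma over all 12 arrays, p-values were adjusted across the 18417 genes by the method of Benjamini and Hochberg, and a gene was called where the adjusted p was under 0.05. The targeted mRNAs were lower where their shRNAs were present. UBE4B fell by 1.42 in the double knockdown (adjusted p = 3.43e-06) and fell by 1.40 in shUBE4B cells (adjusted p = 7.88e-06), and KDM1A fell by 1.12 in the double knockdown (adjusted p = 3.35e-05) and fell by 1.26 in shLSD1 cells (adjusted p = 7.34e-05). Of 7 markers of the line, VIM averaged 11.2, NEFL 9.48, KRT18 9.05, KRT8 8.13, NEFM 8.01, LHX1 7.27 and PAX2 7.09 over all arrays. Of 7 colon epithelium markers, CDX2 averaged 9.32, CDX1 7.84 and the other 5 between 4.69 and 6.62. The file carries no detection calls.

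The E2 signals varied far more between genes than between groups. The brightest clusters belonged to UBE2V1 (mean of 12 arrays 12.56), UBE2G1 (11.77) and UBE2K (11.43). The dimmest belonged to UBE2U (4.18), UBE2L6 (7.20) and UBE2B (8.43). Because each cluster has its own probes, this order is one of signals and not of RNA levels. The largest difference of any E2 gene between a pair of groups was 0.39, and the 95% intervals of the differences reached 0.11 to 0.26 to either side (median 0.15).

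In the double knockdown 4 of 24 E2 genes were higher than in the control and 0 were lower. They were UBE2N, which builds K63-linked chains, UBE2H, the partner of the CTLH ligase, UBE2Z, which takes ubiquitin from the E1 enzyme UBA6, and UBE2Q1, whose role is less known. Of all genes 3.74% were called higher and 3.83% lower in this comparison, beside 16.7% and 0% of the E2 genes. The share over all genes includes dim genes, whereas 23 of the 24 E2 genes remain when the 40% dimmest are left out. A share among genes of like brightness was not taken. Without any 1 double knockdown array the E2 genes called higher were 2 of 24 (UBE2N and UBE2H), and UBE2C was called lower in 4 of the alternatives. The median change of its 24 genes was -0.01, as was that of all genes, with 12 above 0 and 12 below. Changes ran from -0.20 (UBE2C) to 0.39 (UBE2H), and 6 genes (25%) had an unadjusted p under 0.05, against 20.7% of all genes.

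UBE2N is the catalytic E2 that works with UBE2V1 or UBE2V2. Its log2 signals were 10.01, 10.08 and 10.08 in double knockdown cells, 9.82, 9.89 and 9.82 in shUBE4B cells, and 9.93, 9.92 and 9.87 in shLSD1 cells, against 9.65, 9.70 and 9.71 in control cells. Every double knockdown array lay above every other array, and every control array lay below every other array. The double knockdown was higher than the control by 0.37 (1.29-fold, standard error 0.06, adjusted p = 0.00145). The single knockdowns differed from the control by 0.15 (shUBE4B, adjusted p = 0.0942) and 0.22 (shLSD1, adjusted p = 0.0902), neither of which passed. The interaction, which asks whether the 2 shRNA sets together differ from the sum of each alone, was -0.00 with a 95% interval of -0.17 to 0.16 (adjusted p = 0.988). Over its own single knockdowns the double knockdown stood at 0.21 (shUBE4B, adjusted p = 0.162) and 0.15 (shLSD1, adjusted p = 0.199).

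Its partners lack the active-site cysteine and give UBE2N its choice of lysine. UBE2V1 had signals of 12.56, 12.58 and 12.63 in double knockdown cells, 12.66, 12.63 and 12.65 in shUBE4B cells, and 12.50, 12.50 and 12.52 in shLSD1 cells, against 12.55, 12.40 and 12.58 in control cells. UBE2V2 had 9.53, 9.38 and 9.37 in double knockdown cells, 9.48, 9.48 and 9.51 in shUBE4B cells, and 9.27, 9.32 and 9.31 in shLSD1 cells, against 9.32, 9.30 and 9.40 in control cells. The shUBE4B arrays lay above all control arrays for both genes, while the double knockdown overlapped the control. Differences from the control in shUBE4B cells were 0.13 for UBE2V1 (adjusted p = 0.166) and 0.15 for UBE2V2 (adjusted p = 0.13), and in the double knockdown 0.08 (adjusted p = 0.503) and 0.09 (adjusted p = 0.485). Neither gene was called in any comparison. UBE2N, UBE2V1 and UBE2V2 each have named pseudogenes (1, 15 and 4), and signal from probes shared with such copies cannot be separated here.

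UBE2H serves the CTLH ligase, the mammalian counterpart of the yeast GID complex. Its signals were 9.30, 9.18 and 9.28 in double knockdown cells, 8.95, 9.07 and 9.05 in shUBE4B cells, and 9.05, 8.97 and 9.19 in shLSD1 cells, against 8.85, 8.77 and 8.97 in control cells. The double knockdown arrays lay above all control and shUBE4B arrays, and the lowest of them, at 9.18, lay just under the highest shLSD1 array. The double knockdown was higher by 0.39 (1.31-fold, standard error 0.08, adjusted p = 0.00624), the largest change from the control in the family. The differences were 0.16 in shUBE4B cells (95% interval -0.00 to 0.32, adjusted p = 0.186) and 0.21 in shLSD1 cells (0.04 to 0.37, adjusted p = 0.25). The interaction was 0.03 (-0.20 to 0.26, adjusted p = 0.929). UBE2H has 1 named pseudogene, and signal from shared probes cannot be separated here.

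UBE2Q1 belongs to a pair of long E2 enzymes with UBE2Q2. Its signals were 11.37, 11.36 and 11.34 in double knockdown cells, 11.33, 11.30 and 11.34 in shUBE4B cells, and 11.32, 11.29 and 11.30 in shLSD1 cells, against 11.18, 11.09 and 11.17 in control cells. All 9 knockdown arrays lay between 11.29 and 11.37, above all 3 control arrays. The difference from the control was 0.21 in the double knockdown (1.16-fold, standard error 0.05, adjusted p = 0.0296), 0.18 in shUBE4B cells (adjusted p = 0.0522) and 0.16 in shLSD1 cells (adjusted p = 0.212). Without control replicate 2, the lowest array for this gene, the double knockdown difference was 0.18 and did not pass (adjusted p = 0.0526), nor did it without any 1 of the double knockdown arrays (adjusted p = 0.0714 to 0.0863). UBE2Q2 showed no such pattern, with differences of -0.04, 0.08 and -0.14 in the double knockdown, shUBE4B and shLSD1 cells, none called.

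UBE2Z followed the UBE4B shRNAs. Its signals were 11.33, 11.27 and 11.31 in double knockdown cells and 11.34, 11.25 and 11.22 in shUBE4B cells, both groups above all shLSD1 arrays (11.12, 10.99 and 10.96) and all control arrays (11.10, 11.05 and 11.00). The difference from the control was 0.25 in the double knockdown (1.19-fold, standard error 0.06, adjusted p = 0.0293), 0.22 in shUBE4B cells (1.16-fold, adjusted p = 0.0461) and -0.03 in shLSD1 cells (95% interval -0.17 to 0.10, adjusted p = 0.888). Over shLSD1 cells the double knockdown was higher by 0.28 (adjusted p = 0.034), and over shUBE4B cells it differed by 0.03 (95% interval -0.10 to 0.17, adjusted p = 0.856). The call against the control in the double knockdown was lost without control replicate 3 (0.23, adjusted p = 0.0799) or any 1 double knockdown array (adjusted p = 0.0571 to 0.0937). The call in shUBE4B cells was lost in 11 of 12 fits that each left out 1 array (adjusted p = 0.0505 to 0.164), with shLSD1 replicate 1 the exception, and that over shLSD1 cells was lost without any 1 double knockdown array, shUBE4B replicate 2, or shLSD1 replicate 2 or 3 (adjusted p = 0.0547 to 0.134). UBA6, the E1 enzyme that loads UBE2Z, was looked at after its value was seen: it differed by -0.24 in the double knockdown (adjusted p = 0.0755) and by -0.07 in shUBE4B cells (adjusted p = 0.599), and was not called.

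**Figure D1:**
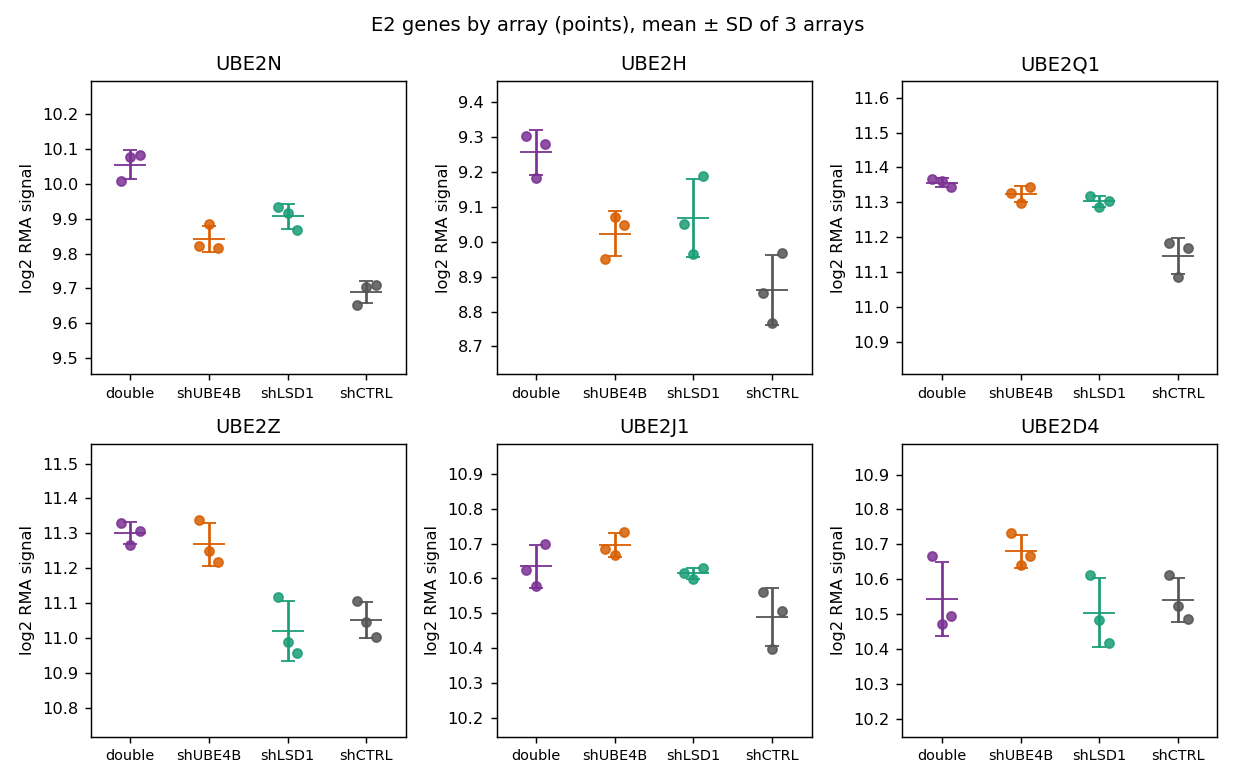
Log2 signal of UBE2N, UBE2H, UBE2Q1, UBE2Z, UBE2J1 and UBE2D4 on each array, with the double knockdown (labelled double), shUBE4B, shLSD1 and shCTRL from left to right, and bars that give the group mean ± SD (3 arrays each); every panel spans the same width on the log2 scale. The 3 double knockdown arrays of UBE2N (10.01 to 10.08) lie above all others, UBE2Z is split by the UBE4B shRNAs, and of the UBE2D4 groups shUBE4B (10.64 to 10.73) alone lies wholly above the control.

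In shUBE4B cells 2 of 24 E2 genes were higher than in the control, UBE2Z and UBE2J1, and 0 were lower. Over all genes 5.59% were called higher and 4.47% lower, so the 8.33% of E2 genes called higher lay near the background. A further quantile normalization of the deposited values turned this split to 0 higher and 3 lower (UBE2C, UBE2L6 and UBE2S), and leaving out control replicate 3 turned it to 0 higher and 2 lower (UBE2C and UBE2S). An unadjusted p under 0.05 was found for 9 E2 genes (37.5%), against 27.5% of all genes. The median change was 0.06 (all genes -0.03), with 16 genes above 0 and 8 below, between -0.27 (UBE2S) and 0.22 (UBE2Z).

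UBE2J1 is anchored in the membrane of the endoplasmic reticulum, where it takes part in the degradation of misfolded proteins. Its signals were 10.63, 10.58 and 10.70 in double knockdown cells, 10.68, 10.67 and 10.73 in shUBE4B cells, and 10.61, 10.60 and 10.63 in shLSD1 cells, against 10.56, 10.40 and 10.51 in control cells. All knockdown arrays lay above all control arrays, and the lowest array was control replicate 2. The difference was 0.21 in shUBE4B cells (1.15-fold, standard error 0.06, adjusted p = 0.0484), 0.15 in the double knockdown (adjusted p = 0.184) and 0.13 in shLSD1 cells (adjusted p = 0.4). Without control replicate 2 the shUBE4B difference was 0.16 (adjusted p = 0.126), and the call was lost in 11 of 12 fits that each left out 1 array (adjusted p = 0.0516 to 0.142), with control replicate 1 the exception. The interaction was -0.19 (95% interval -0.37 to -0.00, adjusted p = 0.381).

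The other E2 enzymes of K48-linked chains and of the endoplasmic reticulum were not called. UBE2G2, which serves the same degradation route, had signals of 10.56, 10.51 and 10.53 in double knockdown cells, 10.58, 10.50 and 10.51 in shUBE4B cells, and 10.68, 10.66 and 10.66 in shLSD1 cells, against 10.60, 10.58 and 10.64 in control cells. Its double knockdown arrays lay just under the control arrays, with a difference of -0.07 (adjusted p = 0.487), and the shLSD1 arrays lay just above them, with 0.06 (adjusted p = 0.687). UBE2J2, the other membrane-anchored E2, differed by -0.09, -0.09 and -0.06 in the double knockdown, shUBE4B and shLSD1 cells. UBE2K and UBE2G1, which extend K48-linked chains, differed by -0.05 to 0.06 and by -0.07 to 0.00 over the same groups. UBE2R2, an E2 of cullin-RING ligases, differed by 0.01 in the double knockdown and 0.13 in shUBE4B cells (adjusted p = 0.259), where its arrays lay above all control arrays.

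UBE2D4 was the member of the UBE2D type, the E2 enzymes that work with the U-box of UBE4B, that could be read. Its signals were 10.67, 10.47 and 10.49 in double knockdown cells, 10.73, 10.64 and 10.67 in shUBE4B cells, and 10.61, 10.48 and 10.42 in shLSD1 cells, against 10.61, 10.52 and 10.49 in control cells. Only the shUBE4B arrays lay apart from the control arrays. The difference in shUBE4B cells was 0.14 (95% interval -0.02 to 0.30, adjusted p = 0.233), and in the double knockdown it was 0.00 (-0.15 to 0.16, adjusted p = 0.991). UBE2E1 and UBE2E2, near relatives of the UBE2D enzymes, differed by 0.08 and 0.03 in the double knockdown, by 0.07 and 0.06 in shUBE4B cells, and by 0.01 and 0.10 in shLSD1 cells, none called.

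**Figure D2:**
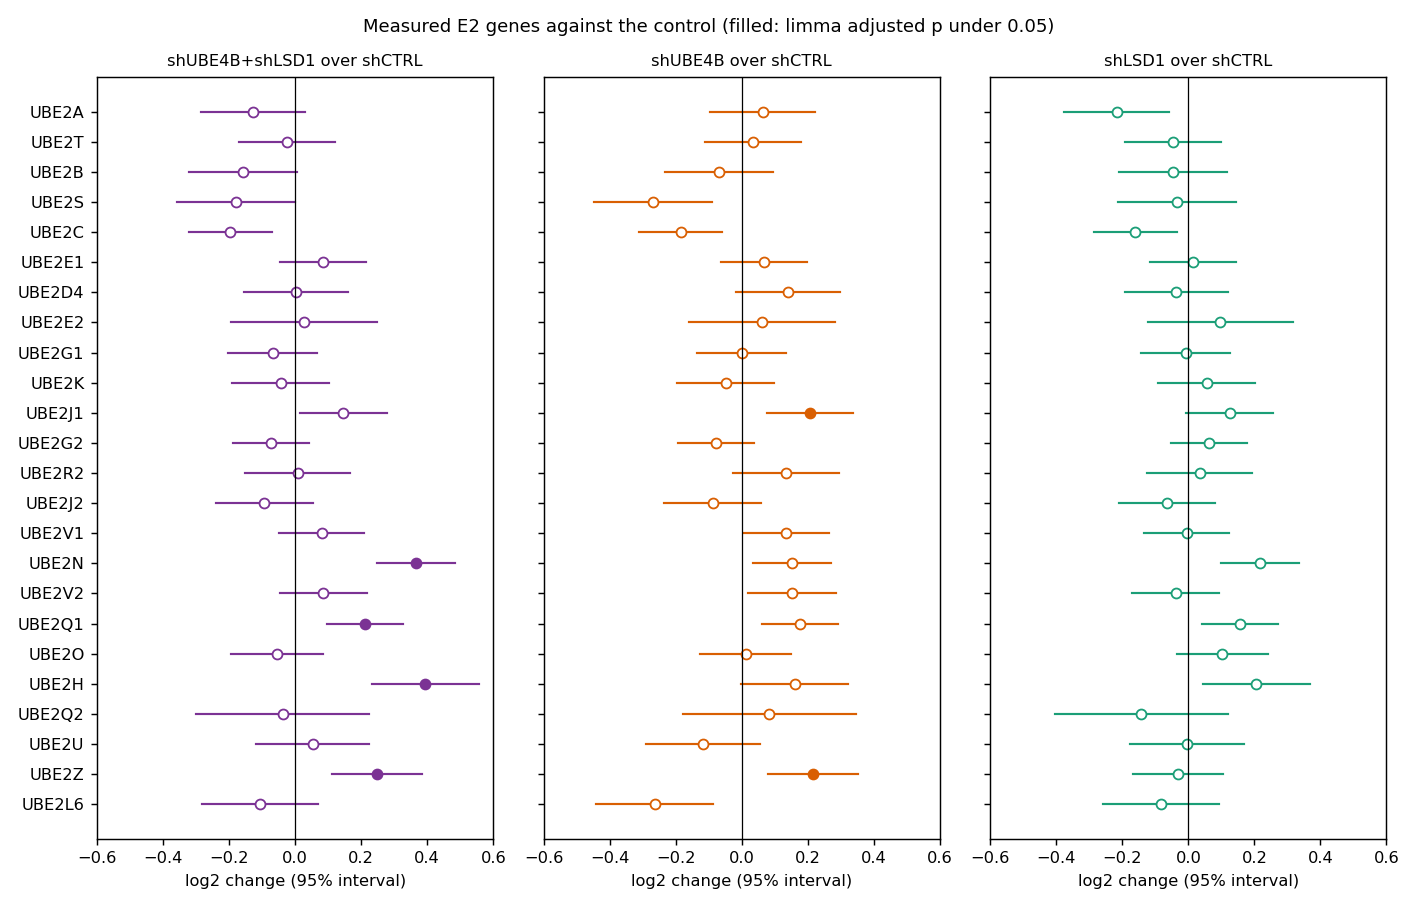
Log2 change of each of the 24 E2 genes over the control with its 95% interval, for the double knockdown, shUBE4B and shLSD1 from left to right; filled points are genes at a limma adjusted p under 0.05. The filled points are UBE2N, UBE2H, UBE2Q1 and UBE2Z in the double knockdown and UBE2J1 and UBE2Z in shUBE4B cells, and all points lie between -0.27 and 0.39.

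Both E2 enzymes of the anaphase-promoting complex, the mitotic ligase, were among the lowest changes in the double knockdown and in shUBE4B cells. Neither was called in the fit reported here, but both were in some alternatives. UBE2C starts the ubiquitin chains of that complex. Its signals were 9.86, 9.86 and 9.81 in double knockdown cells, 9.87, 9.85 and 9.85 in shUBE4B cells, and 9.96, 9.85 and 9.83 in shLSD1 cells, against 10.08, 10.06 and 9.98 in control cells. All knockdown arrays lay below all control arrays. The differences were -0.20 in the double knockdown (95% interval -0.32 to -0.07, adjusted p = 0.0577), -0.18 in shUBE4B cells (adjusted p = 0.0608) and -0.16 in shLSD1 cells (adjusted p = 0.246). UBE2C was called lower in the double knockdown without control replicate 3, with trend and robust settings, with the replicate number as a block and without the 40% dimmest genes, and in shUBE4B cells under these 4 and with a further quantile normalization.

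UBE2S extends those chains with K11 linkages. Its signals were 10.15, 10.04 and 10.08 in double knockdown cells, 10.07, 9.99 and 9.93 in shUBE4B cells, and 10.40, 10.13 and 10.17 in shLSD1 cells, against 10.39, 10.24 and 10.17 in control cells. The arrays with UBE4B shRNAs lay below all control arrays, and the shLSD1 arrays overlapped them. The difference was -0.27 in shUBE4B cells (95% interval -0.45 to -0.09, adjusted p = 0.0566) and -0.18 in the double knockdown (adjusted p = 0.244). In shUBE4B cells UBE2S was called lower in the 5 alternatives that called UBE2C there, with array weights, and without shLSD1 replicate 1. A second UBE2S cluster gave -0.20 and -0.16 (adjusted p = 0.204 and 0.431 over all clusters). UBE2C and UBE2S have 5 and 2 named pseudogenes. Signal from probes shared with such copies cannot be separated here, so the second UBE2S cluster may not be an independent reading.

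Of 24 mitotic genes measured, 0 were called in the double knockdown (3 at an unadjusted p under 0.05, against 20.7% of all genes). In shUBE4B cells 1, the kinase AURKB, was called lower (-0.22, adjusted p = 0.0316), against 4.47% of all genes. The median change of the list there was 0.09. Both counts lie near or under the shares over all genes. The arrays differed in these genes apart from their groups. The median deviation from the gene mean was -0.16 on control replicate 2, against 0.08 and 0.05 on the other control arrays, and it lay between -0.08 and -0.01 in the double knockdown, between 0.03 and 0.08 in shUBE4B cells, and between -0.04 and -0.01 in shLSD1 cells. On control replicate 2, where mitotic genes were lowest, UBE2C and UBE2S stood above their 12-array means and UBE2T below it. The part of the mitotic state of the cells in the E2 values was not tested.

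**Figure D3:**
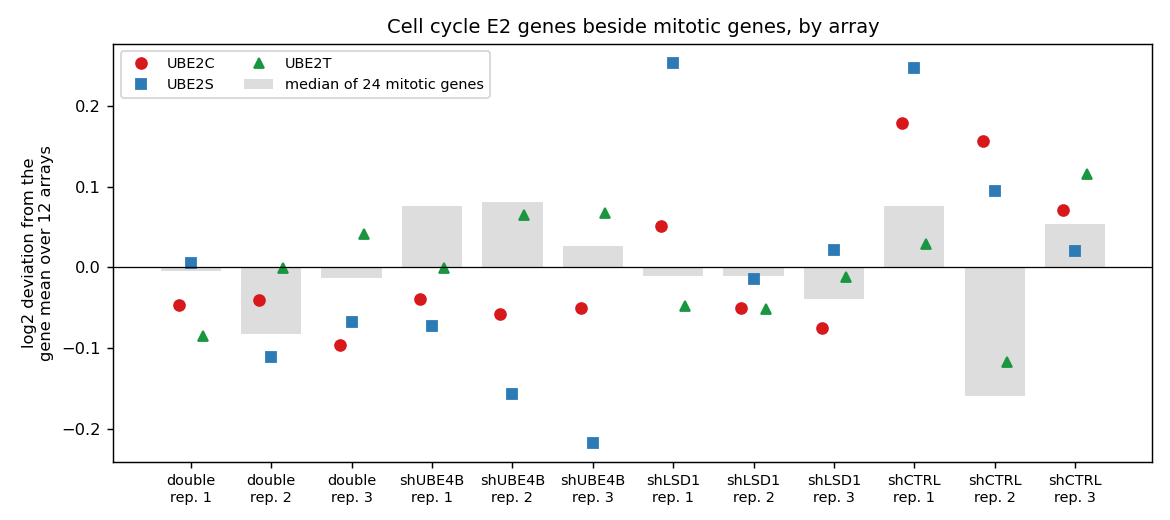
Deviation of the log2 signal of UBE2C, UBE2S and UBE2T from the mean of 12 arrays (points), beside grey bars for the median deviation of 24 mitotic genes, by array. UBE2C is above 0 on all 3 control arrays and on 1 shLSD1 array, whereas the mitotic bars are lowest on control replicate 2 (-0.16).

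The E2 enzymes of DNA damage repair were not called. UBE2A, which works with RAD18 and RNF20, had signals of 10.23, 10.17 and 10.23 in double knockdown cells, 10.49, 10.31 and 10.40 in shUBE4B cells, and 10.11, 10.24 and 10.00 in shLSD1 cells, against 10.41, 10.25 and 10.35 in control cells. Arrays with LSD1 shRNAs lay below all control arrays. The difference was -0.22 in shLSD1 cells (95% interval -0.38 to -0.06, adjusted p = 0.209), -0.13 in the double knockdown (adjusted p = 0.364) and -0.19 in the double knockdown over shUBE4B cells (adjusted p = 0.307). Its close relative UBE2B differed by -0.16 in the double knockdown (adjusted p = 0.263), and UBE2T, the E2 of the Fanconi anaemia pathway, by -0.02 (95% interval -0.17 to 0.12).

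UBE2L6, the E2 of the interferon-induced modifier ISG15, had signals of 7.17, 7.28 and 7.17 in double knockdown cells, 6.98, 7.02 and 7.14 in shUBE4B cells, and 7.24, 7.14 and 7.31 in shLSD1 cells, against 7.18, 7.48 and 7.27 in control cells. The shUBE4B arrays lay below all control arrays, and the highest array was control replicate 2. The difference in shUBE4B cells was -0.26 (95% interval -0.44 to -0.09, adjusted p = 0.058), called lower without control replicate 1, with a further quantile normalization and without the 40% dimmest genes, and the interaction, at 0.24, was the largest of the family (-0.01 to 0.49, adjusted p = 0.396). UBE2O, a large hybrid E2 and E3 enzyme, differed by -0.05, 0.01 and 0.10 in the double knockdown, shUBE4B and shLSD1 cells. UBE2U, the dimmest E2 cluster, differed by 0.05, -0.12 and -0.00, and none of these passed.

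In shLSD1 cells 0 of 24 E2 genes were called in limma, with 5 (20.8%, against 13.4% of all genes) at an unadjusted p under 0.05 (UBE2A, UBE2C, UBE2H, UBE2N and UBE2Q1) and 0 by the methods' t-test after adjustment. Over all genes 0.505% were called higher and 0.315% lower, so few calls were made anywhere in this comparison. The median change of the family was -0.01, as for all genes, with 10 genes above 0 and 14 below. Changes ran from -0.22 (UBE2A) to 0.22 (UBE2N).

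The double knockdown was set against each single knockdown to ask what the other shRNAs added. Over shUBE4B cells 0 of 24 E2 genes were called in limma (0.0706% of all genes higher and 0.076% lower), with 3 (12.5%, against 13.0% of all genes) at an unadjusted p under 0.05 (UBE2A, UBE2H and UBE2N) and 0 by the methods' t-test after adjustment. The largest differences were 0.23 for UBE2H (95% interval 0.07 to 0.39, adjusted p = 0.231) and 0.21 for UBE2N (0.09 to 0.33, adjusted p = 0.162). Over shLSD1 cells 1 of 24, UBE2Z, was higher and 0 were lower (0.977% of all genes higher and 1.81% lower). An unadjusted p under 0.05 was found for 5 (20.8%, against 15.4% of all genes). They were UBE2Z, UBE2N and UBE2H, higher, and UBE2G2 (-0.14, adjusted p = 0.229) and UBE2O (-0.16, adjusted p = 0.246), lower. UBE2H and UBE2N stood at 0.19 and 0.15 over shLSD1 cells (adjusted p = 0.238 and 0.199). The family median was -0.02 over shUBE4B cells and 0.02 over shLSD1 cells. For the interaction 0 of 24 E2 genes and 0% of all genes were called, and 1 E2 gene (4.17%, against 13.1% of all genes), UBE2J1, had an unadjusted p under 0.05. These comparisons share arrays with one another and with those against the control.

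**Figure D4:**
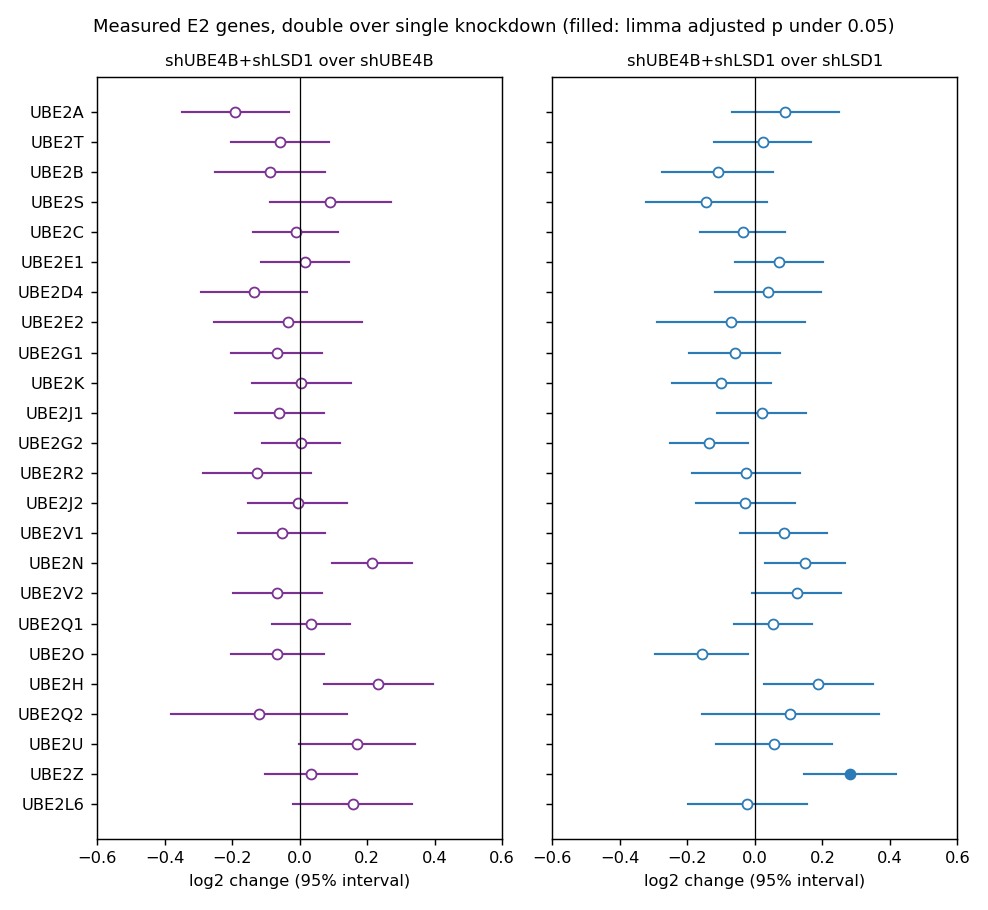
Log2 change of the 24 E2 genes in the double knockdown over shUBE4B cells (left) and over shLSD1 cells (right), with 95% intervals; filled points are genes at a limma adjusted p under 0.05. UBE2Z over shLSD1 cells (0.28) is the filled point, and UBE2H and UBE2N lie to the right of 0 in both panels with adjusted p between 0.162 and 0.238.

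Arrays of the knockdown and the control did not overlap for more E2 genes than passed the test. In the double knockdown 5 of 24 lay wholly above the control and 4 wholly below, against 10.6% and 11.3% of all genes. In shUBE4B cells 9 lay above and 5 below, against 14.2% and 16.1%. In shLSD1 cells 4 lay above and 2 below, against 8.53% and 8.11%. UBE2N, UBE2Q1 and UBE2J1 lay wholly above the control in all 3 comparisons and UBE2C wholly below, but these share the same 3 control arrays. The share of all genes that lay apart in all 3 comparisons was not taken.

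The other steps of the cascade were read from lists, chosen with earlier results of these data known. Over all genes 3.74% were called higher and 3.83% lower in the double knockdown, and 5.59% and 4.47% in shUBE4B cells. Of 10 E1 enzymes 8 were measured, and 0 were called in limma in any comparison with the control. At an unadjusted p under 0.05 stood 2, 1 and 0 of them in the double knockdown, shUBE4B and shLSD1 cells. The shares over all genes there were 20.7%, 27.5% and 13.4%. Of 14 ubiquitin and ubiquitin-like modifiers 8 were measured, and 1, SUMO3, a modifier of the SUMO family, was called. It had signals of 9.99, 10.06 and 10.04 in double knockdown cells, 9.98, 10.07 and 10.03 in shUBE4B cells, and 10.53, 10.46 and 10.45 in shLSD1 cells, against 10.58, 10.65 and 10.36 in control cells. All arrays with UBE4B shRNAs lay below all others. SUMO3 fell by 0.50 in the double knockdown (adjusted p = 0.00119) and fell by 0.51 in shUBE4B cells (adjusted p = 0.00138).

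Of 8 E2 and E2-like genes outside the name rule, 2 were higher in the double knockdown and 4 in shUBE4B cells, 0 were lower in either, and 0 were called in shLSD1 cells. Of all genes 3.74% were higher in the double knockdown and 5.59% in shUBE4B cells. AKTIP, an E2-like protein without the active cysteine that acts in vesicle transport and at telomeres, had signals of 8.30, 8.18 and 8.38 in double knockdown cells, 8.35, 8.37 and 8.30 in shUBE4B cells, and 7.74, 7.61 and 7.74 in shLSD1 cells, against 7.64, 7.10 and 7.68 in control cells. The arrays with UBE4B shRNAs lay above all others, and control replicate 2 was the lowest. AKTIP was higher by 0.81 (1.76-fold, adjusted p = 0.0014) in the double knockdown and by 0.87 (adjusted p = 0.00114) in shUBE4B cells. UEVLD, which joins a UEV domain of the inactive E2 type to a dehydrogenase-like part, was higher by 0.52 in the double knockdown (adjusted p = 0.000128) and by 0.51 in shUBE4B cells (adjusted p = 0.000258). In shUBE4B cells the autophagy E2 ATG10 (0.34, adjusted p = 0.0257) and BIRC6, a giant E2 that inhibits apoptosis (0.21, adjusted p = 0.0443), were also higher. The median of these 8 genes was 0.10 in the double knockdown and 0.19 in shUBE4B cells, against -0.01 and -0.03 for all genes.

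Of 59 E3 ligase genes known as partners of E2 enzymes 53 were measured. In the double knockdown 2 were higher and 5 lower, and in shUBE4B cells 5 were higher and 3 lower. In shLSD1 cells 0 were called, with 5 at an unadjusted p under 0.05, against 13.4% of all genes. With 3.74% and 3.83% of all genes called higher and lower in the double knockdown, and 5.59% and 4.47% in shUBE4B cells, several of these counts lie near the share over all genes, and those called lower include UBE4B, the target itself. RMND5A and MAEA, the RING subunits of the CTLH ligase that works with UBE2H, differed in opposite directions. RMND5A had signals of 9.76, 9.79 and 9.96 in double knockdown cells, 9.52, 9.68 and 9.64 in shUBE4B cells, and 9.40, 9.57 and 9.45 in shLSD1 cells, against 9.17, 9.06 and 9.37 in control cells. All knockdown arrays of RMND5A lay above the control, and it was higher by 0.64 in the double knockdown (1.56-fold, adjusted p = 0.000702) and by 0.41 in shUBE4B cells (adjusted p = 0.0105). MAEA had signals of 9.97, 10.09 and 10.05 in double knockdown cells, 9.95, 10.05 and 9.98 in shUBE4B cells, and 10.40, 10.45 and 10.44 in shLSD1 cells, against 10.35, 10.40 and 10.30 in control cells. It fell by 0.31 in the double knockdown (adjusted p = 0.00567) and fell by 0.36 in shUBE4B cells (adjusted p = 0.00286). RNF4, a ligase of SUMO-marked proteins, differed by -0.34 in the double knockdown (adjusted p = 0.00635) and by -0.44 in shUBE4B cells (adjusted p = 0.00182), both calls. MDM2, the ligase of p53, was higher by 0.39 in the double knockdown (adjusted p = 0.0149) and by 0.50 in shUBE4B cells (adjusted p = 0.00407). TRAF6, a ligase that uses UBE2N, was higher in shUBE4B cells by 0.36 (adjusted p = 0.028). It was not among the genes called higher in the double knockdown.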

How the data were processed

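HEK293T RNA was measured on 12 Affymetrix Human Gene 1.0 ST arrays in 4 groups of 3. The deposited log2 values were produced by the authors with RMA in Partek (versions not given in the sources used here). RMA corrects background, sets all arrays to one distribution and summarises probes per transcript cluster, with hg19 as the build. A change in total RNA per cell is thereby removed. With 3 arrays a group, precision is limited by their number.

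Of 33297 transcript clusters, 19460 had 1 symbol, 1754 had several and 12083 had no name here. The first gave 18417 genes once symbols were updated through a RefSeq gene table of GRCh38.p14 (27 could not be updated). Several-symbol and unnamed clusters were left out because they belong to no single gene. Promoter windows are RefSeq sequences of GRCh38.p14.

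Comparisons were run with limma 3.58.1 under R 4.3.3 (lmFit, then eBayes with no trend; 4 group means, 8 residual and 5.13 prior degrees of freedom, no replicate block) and Benjamini-Hochberg adjustment over 18417 genes. The procedure was tested on simulated data. The methods of the study name a Student's t-test, run as an alternative with the same adjustment. The paper's pathway analysis instead took genes past a fold threshold with p under 0.05, and names no adjustment. Other alternatives were each array left out, trend and robust settings, 6-array fits, array weights, a block for the replicate number, median centring, a second quantile normalization, averaging of a gene's clusters, leaving out the 40% dimmest genes and, added after seeing the data, a fit of all clusters. The members and lists were chosen with earlier results of these data known. E2 genes called in any comparison, UBE2D genes, and the 3 brightest and 3 dimmest were to be named, with up to 4 called genes of each list by size of change. Values of UBE2V1, UBE2V2, UBE2C, UBE2S, UBE2G2, UBE2A, UBE2L6, UBA6, MAEA and TRAF6 were chosen after they were seen. Python 3.11.15, pandas 2.3.3, NumPy 2.4.6 and matplotlib 3.10.9 were used.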

Additional observations from a re-analysis of the deposited data

Results flagged for a closer look

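A signal was present in clusters that the comparisons above do not use. In a fit of all 33297 clusters, 3 clusters of UBE2 pseudogenes were higher in shUBE4B cells than in control cells. The first and second of them given here both carry UBE2Q2P2. The other clusters with a UBE2 symbol outside the rule were not called. The share of all clusters called higher in this fit was not taken, and in the fit of genes it was 5.59%. The cluster of UBE2Q2P2, a pseudogene of UBE2Q2, had signals of 7.93, 7.91 and 7.82 in shUBE4B cells, against 7.33, 7.36 and 7.71 in control cells, a difference of 0.42 (limma adjusted p = 0.0326). A second cluster, annotated with UBE2Q2P2, LOC727751, GOLGA2P7 and GOLGA2P10, differed by 0.29 (adjusted p = 0.0205). UBE2NL, a copy of UBE2N that the reference table lists as a pseudogene, had signals of 7.98, 7.99 and 7.94 in shUBE4B cells, against 7.76, 7.64 and 7.77 in control cells, a difference of 0.25 (adjusted p = 0.0411), and one of 0.21 in the double knockdown (adjusted p = 0.0975). UBE2Q2 itself differed by 0.08 and UBE2N by 0.15 in shUBE4B cells, neither called. Probes of these copies may also take up RNA of the parent genes, which was not tested.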

How the results depend on the processing

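No log2 change of a called E2 gene changed sign, but the direction of the shUBE4B calls did. For the double knockdown against the control, the 4 E2 genes called became 2 to 4 when 1 array was left out: UBE2H and UBE2N stayed in all 12 such fits, without any 1 double knockdown array these 2 alone were called, without control replicate 2 it was 3, and without control replicate 3 it was 4, with UBE2Z lost and UBE2C called lower. The count was 2 in the 6-array fit and 2 with array weights (UBE2H and UBE2N in both). With the methods' t-test it was 0 after Benjamini-Hochberg adjustment. In that t-test UBE2H had an unadjusted p = 0.00464 (adjusted p = 0.142) and UBE2N an unadjusted p = 0.00027 (adjusted p = 0.0596). The count was 5 with trend and robust settings and 5 without the 40% dimmest genes, where UBE2C, lower, joined the 4. For shUBE4B against the control, the 2 calls became 0 to 2 when 1 array was left out, with 0 in 9 of 12 such fits (each double knockdown or shUBE4B array, shLSD1 replicate 2 or 3, or control replicate 2). The other 3 fits each called 2 genes: UBE2Z higher and UBE2S lower without shLSD1 replicate 1, UBE2J1 higher and UBE2L6 lower without control replicate 1, and UBE2C and UBE2S, both lower and neither among the 2 reported, without control replicate 3. That count was 6 with trend and robust settings (2 of them lower), 0 in the 6-array fit, 1 with array weights (UBE2S, lower), 1 with median centring, 7 without the 40% dimmest genes (3 of them lower), 0 with the t-test and 0 with all clusters. With a further quantile normalization it was 3, all lower and none among the 2 reported. For shLSD1 the 0 calls became 1 (UBE2N) with trend and robust settings and 1 (UBE2N) without the dimmest genes, and stayed 0 with any 1 array left out. For the double knockdown over shLSD1 cells the 1 call (UBE2Z) became 0 or 1 with 1 array left out (0 without any 1 double knockdown array, shUBE4B replicate 2, or shLSD1 replicate 2 or 3), 0 in the 6-array fit, 0 with the t-test and 0 with all clusters. The double knockdown over shUBE4B cells and the interaction gave 0 in every fit. The cause of these changes was not tested.

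With the replicate number as a block, 5 E2 genes were called in the double knockdown (UBE2C, lower, was added) and 5 in shUBE4B cells (UBE2Q1 higher, UBE2C and UBE2S lower were added), with 0, 0, 1 and 0 in shLSD1 cells, the double knockdown over shUBE4B cells, over shLSD1 cells, and the interaction. Same-numbered arrays correlated at -0.08 to 0.33 in their deviations (median 0.13, 10 of 18 pairs over 0.1), against a median of -0.03 (2 of 36 over 0.1) for other pairs, and 9 of 12 arrays correlated best with their own number. This is a hint from the data that arrays of one number share something. The labels name no shared day or batch and not every pair was over 0.1, so the fit without the block was kept.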

Other observations

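Clusters with several symbols cover 2 coding E2 genes. The cluster of UBE2E3 and the pseudogene UBE2E4P differed from the control by -0.04, -0.05 and -0.00 in the double knockdown, shUBE4B and shLSD1 cells, and the cluster of UBE2F, an E2 of the modifier NEDD8, and its read-through transcript UBE2F-SCLY by 0.13, 0.12 and 0.03 (limma adjusted p between 0.492 and 0.945). A cluster that UBE2V1 shares with PEDS1 differed by -0.01, 0.01 and 0.01, where the cluster of UBE2V1 alone differed by 0.08, 0.13 and -0.00. EPCAM, a marker of epithelium, was lower in the double knockdown (-0.58, adjusted p = 0.0232) and in shUBE4B cells (-0.55, adjusted p = 0.0264). Its cluster was dim, with a mean of 6.27 over all arrays, under the array medians. The control arrays spread widely, at 6.59, 6.19 and 6.94, against 5.88, 6.02 and 6.07 in double knockdown cells.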
